A study of Homo sapiens with 3 samples.

Results

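The alpha and beta globin genes were followed across 3 RNA sequencing libraries of HEK293T cells, a human embryonic kidney line, by taking the rows of the count table whose symbol was one of 10 named globin genes. All 10 were found, each in 1 row of the 57268 gene identifiers. The beta-type genes were HBB, HBD, HBE1, HBG1 and HBG2, and the alpha-type genes were HBA1, HBA2, HBZ, HBQ1 and HBM. The family was selected on these same counts, because the ratios of HBB and HBD between the library with SRSF9 and the others stood out in earlier results. The ratios below are therefore descriptions and not tests. The cell line label reads HEK 293T, while the sample titles read HEK293. The libraries came from cells overexpressing ADAR2 and SRSF9 together (ADAR2+SRSF9), cells overexpressing ADAR2 only (ADAR2), and cells with no overexpression (control), with 1 library per group. ADAR2 is an adenosine deaminase that edits double-stranded RNA and is encoded by ADARB1, and SRSF9 belongs to the SR proteins, which bind RNA and guide splicing. The question behind the design was the influence of SRSF9 on editing by ADAR2. The values used here are read counts per gene, which measure RNA level and not editing. The overexpression plasmids are not described in the labels, and no library carrying an empty plasmid was analysed here.

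Haemoglobin is built from a pair of alpha-type and a pair of beta-type globin chains, each holding a haem group that binds oxygen. The alpha-type genes lie together on chromosome 16 and the beta-type genes on chromosome 11, and each cluster is switched on in red cell precursors by a distant enhancer region and by the factors GATA1, TAL1 and KLF1. HBE1 and HBZ serve the embryo, HBG1 and HBG2 the fetus, and HBB, with a small contribution from HBD, the adult. In adult red cell precursors HBB RNA is far more abundant than HBD RNA. The clusters are largely silent in other cell types. Globin introns and polyadenylation signals, often from human or rabbit beta-globin, are also common parts of mammalian expression vectors.

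HBB and HBD are close copies, which matters for reading their rows. Their coding sequences, each 444 bases long in the GENCODE version 29 transcripts, were identical at 412 positions and differed at 32, an identity of 92.8%. The longest stretch without a difference in the coding sequence was 54 bases, from position 97 to 150 counted from the first base of the start codon, on chromosome 11. It is shown because a read lying wholly inside it cannot be given to one gene:
HBD and HBB, shared stretch: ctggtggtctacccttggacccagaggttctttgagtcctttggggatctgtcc
The 60-base window with the most differences ran from position 318 to 377 and held 8. It is shown, with the differing bases in capitals, because reads from it can be assigned:
HBB: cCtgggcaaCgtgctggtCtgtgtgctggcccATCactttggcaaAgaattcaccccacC
HBD: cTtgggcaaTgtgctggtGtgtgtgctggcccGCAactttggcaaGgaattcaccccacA
Of the 736 windows of 50 bases along the HBD transcript, 17 also occurred in the HBB transcript, which is 2.31%. By the same measure 81.6% of the windows of HBA1 occurred in HBA2 and 64.8% of those of HBG2 in HBG1. HBA1 and HBA2 had identical coding sequences of 429 bases, and HBG1 and HBG2 differed at 2 positions. How the reads of those pairs were divided is therefore uncertain, and sums are given beside the single rows. The other pairs were less alike: HBB was 79.1% identical to HBE1 and 57.6% identical to HBA1.

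Promoter sequence was available here for 2 of the 10 genes, HBD and HBM, from RefSeq on GRCh38.p14. The 250 bases before each start site are shown, since HBD is one of the pair of genes with high counts and HBM is a gene at or near 0 counts. Capitals mark the motifs searched on both strands. These were GATAAG (a form of the GATA1 site), CACCC (the core of KLF1 sites), CCAAT with its variant ending in C, written CCAAC below, and the start-proximal boxes TATAA or else CATAAA. No matches overlapped. The HBD window lies at chr11:5234484-5234733 on the minus strand and the HBM window at chr16:165728-165977 on the plus strand.
HBD: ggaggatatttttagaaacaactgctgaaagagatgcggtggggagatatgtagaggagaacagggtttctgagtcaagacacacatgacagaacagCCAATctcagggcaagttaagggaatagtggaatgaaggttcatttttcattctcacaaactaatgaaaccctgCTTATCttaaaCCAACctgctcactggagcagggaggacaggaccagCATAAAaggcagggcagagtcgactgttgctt
HBM: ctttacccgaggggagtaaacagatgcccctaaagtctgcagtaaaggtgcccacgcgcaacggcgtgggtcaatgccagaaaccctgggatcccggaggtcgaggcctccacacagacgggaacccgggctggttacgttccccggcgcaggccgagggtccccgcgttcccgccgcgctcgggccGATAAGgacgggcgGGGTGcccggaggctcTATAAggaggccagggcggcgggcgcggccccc
GATAAG was present in both, on the reverse strand at -79 to -74 in HBD and on the forward strand at -63 to -58 in HBM, and in 5.65% of 35116 promoter windows of this length. CACCC was found in HBM at -49 to -45 on the reverse strand and not in this window of HBD. It occurred in 54.7% of all windows. HBD held CCAAT at -153 to -149 (32.0% of windows), CCAAC at -68 to -64 (33.0%) and CATAAA at -32 to -27 (9.64%). HBM held TATAA at -33 to -29 (18.9%). These matches describe letters only.

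Total counts were 97875935 reads in the ADAR2+SRSF9 library, 132887974 in the ADAR2 library and 152878282 in the control library. Levels are given in CPM, counts per 1000000 reads of a library size scaled by TMM, a method that centres the bulk of genes. A limit of 3 reads equals 0.0313, 0.0223 and 0.0194 CPM in these libraries. Every interval below is a 95% counting interval. These cover counting error only, because reads are not independent molecules and no group has a second library. The ADARB1 and SRSF9 rows followed the labels. ADARB1 stood at 13647 CPM with both proteins, 16100.0 CPM with ADAR2 alone and 113.6 CPM in the control. SRSF9 had 18288, 369 and 372 CPM in that order. Reads of resident genes and of plasmids were not separated. All 10 genes listed as markers of HEK293 cells had reads, summing to 1022, 1085 and 1060 CPM.

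HBB, the adult beta chain gene (ENSG00000244734.2), had 36744 reads in the ADAR2+SRSF9 library, 154 in the ADAR2 library and 222 in the control library. These are levels of 383, 1.15 and 1.44 CPM. The ADAR2+SRSF9 library held 333 times the level of the ADAR2 library (interval 285 to 394) and 266 times that of the control library (234 to 306). HBD, the gene of the minor adult delta chain (ENSG00000223609.3), had 90665, 476 and 570 reads in the same order. Its levels were 946, 3.55 and 3.69 CPM. They give ratios of 266 (244 to 293) against the ADAR2 library and 256 (236 to 279) against the control library. For both genes the ADAR2+SRSF9 library alone was high and the others differed by less than 2-fold. Together the HBB and HBD rows took 0.130% of all reads in the ADAR2+SRSF9 library.

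HBB and HBD ranked first and second by ratio among 27896 genes with 10 or more reads over the ADAR2+SRSF9 and ADAR2 libraries, and likewise among 28479 genes against the control library. A gene was called where the libraries differed by 2-fold or more and the interval left out 1. Of those 27896 genes, 4.14% were called higher and 3.6% lower, 7.73% in all. With a mean of 1 CPM or more required, the count of genes called fell to 80, against 2157 here. Among the 7 globin genes that reached 10 reads over the pair, 2 were higher and 0 were lower. Against the control library, 3.89% of 28479 genes were higher and 4.59% lower, 8.49% in all. There, of 7 globin genes, HBB and HBD were higher and HBE1 was lower. Between the ADAR2 and control libraries 2.57% of 28840 genes were higher and 4.19% lower, 6.76% in all, and of 8 globin genes with 10 or more reads 0 were called in either direction. The rows were picked for the contrast with SRSF9, so nothing is read from these counts.

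**Figure D1:**
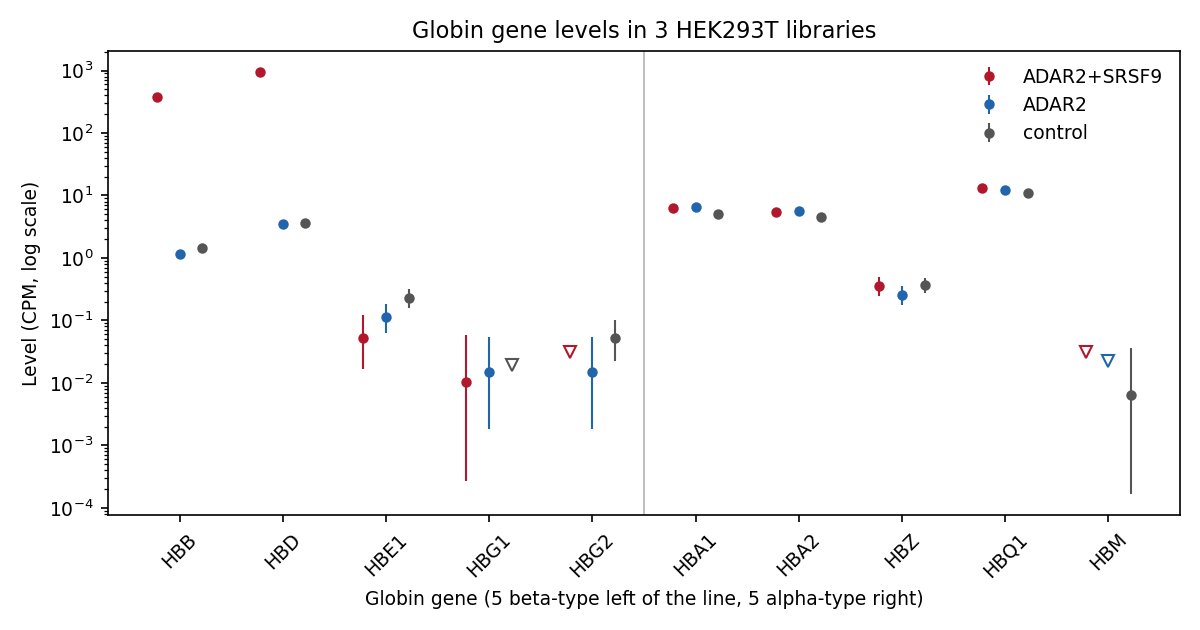
Level of each of the 10 globin genes in CPM on a log axis, for the ADAR2+SRSF9, ADAR2 and control libraries, with 1 library per group. Bars are 95% Poisson counting intervals and open triangles mark 0 reads, drawn at the limit of 3 reads. HBB and HBD lie at 383 and 946 CPM in the ADAR2+SRSF9 library and between 1.15 and 3.69 CPM elsewhere.

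The split of reads between HBB and HBD was alike in the library with high counts and in the control. In the ADAR2 library the HBB share was lower. Its interval did not overlap that of the ADAR2+SRSF9 library but did overlap that of the control. HBB took 28.8% of the reads of both genes in the ADAR2+SRSF9 library (exact Clopper-Pearson interval 28.6 to 29.1%), 24.4% in the ADAR2 library (21.1 to 28.0%) and 28.0% in the control library (24.9 to 31.3%). HBD was thus above HBB in every library. Per length, HBD was at 1205 CPM per kilobase of transcript and HBB at 610 in the ADAR2+SRSF9 library, a ratio of 1.97. The ratio of HBD to HBB per kilobase was 2.47 in the ADAR2 library and 2.05 in the control library. The reads of the pair in the ADAR2 library amounted to 0.494% of those in the ADAR2+SRSF9 library, and those in the control library to 0.622%. Whether the few reads in these libraries came from their own RNA or from reads exchanged between libraries was not tested.

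The remaining beta-type genes were near the limit of detection and did not share the high counts. HBE1, the embryonic epsilon chain gene (ENSG00000213931.1), had 5 reads in the ADAR2+SRSF9 library, 15 in the ADAR2 library and 35 in the control library. Its level in the ADAR2+SRSF9 library was 0.244 times the control level (0.0704 to 0.590). The ratio was 0.487 against the ADAR2 library (0.133 to 1.35), an interval that includes 1. In the ADAR2 library HBE1 was at 0.501 times the control level (0.25 to 0.927). HBG2, a fetal gamma chain gene (ENSG00000196565.8), had 0, 2 and 8 reads, and its near-identical partner HBG1 (ENSG00000213934.5) had 1, 2 and 0. Both lay at or under 3 reads in the overexpressing libraries. Summed over HBE1, HBG1 and HBG2 there were 6 reads in the ADAR2+SRSF9 library, 19 in the ADAR2 library and 43 in the control library. That sum was lower in the ADAR2+SRSF9 library than in the control library, at 0.236 times (0.0782 to 0.531). HBBP1, a pseudogene of the beta cluster, had 0 reads in every library, under the limit of 3 reads (0.0313, 0.0223 and 0.0194 CPM).

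**Figure D2:**
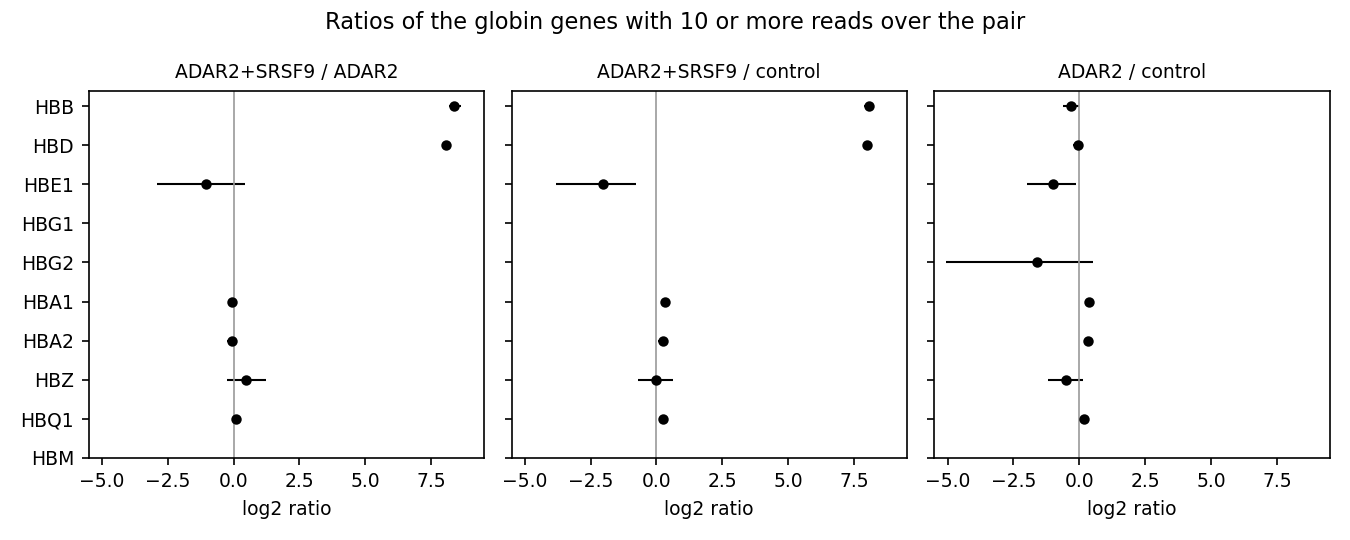
Log2 ratio of the globin genes in ADAR2+SRSF9 over ADAR2, ADAR2+SRSF9 over control and ADAR2 over control, with bars for the 95% counting interval. Genes with under 10 reads over the pair are left blank. HBB and HBD stand at log2 8.38 and 8.06 over the ADAR2 library, with HBB at 8.06 over the control, and the alpha-type genes lie between -0.51 and 0.48 in all panels.

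None of the 4 alpha-type genes with 10 or more reads differed by 2-fold between any of the libraries. HBQ1, which encodes theta globin, a chain of little known function (ENSG00000086506.2), had 1283 reads in the ADAR2+SRSF9 library, 1668 in the ADAR2 library and 1721 in the control library. Its levels were 13.4, 12.4 and 11.1 CPM. It was the most abundant globin row in the ADAR2 and control libraries, and per kilobase it stood at 2.05 to 2.37 times HBA1 in the 3 libraries. HBA1 (ENSG00000206172.4), 1 of the pair of genes for the adult alpha chain, had 602 reads in the ADAR2+SRSF9 library, 878 in the ADAR2 library and 781 in the control library. HBA2 (ENSG00000188536.8), the other, had 516, 761 and 703 reads. HBA1 took 53.8%, 53.6% and 52.6% of the reads of the pair, with intervals that overlapped. HBZ, the embryonic zeta chain gene (ENSG00000130656.4), had 34, 34 and 56 reads, and its interval included 1 in each comparison. HBM, for the mu chain (ENSG00000206177.2), had 0, 0 and 1 reads.

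Summed over the 5 alpha-type genes there were 2435, 3341 and 3262 reads in the ADAR2+SRSF9, ADAR2 and control libraries, which are levels of 25.4, 24.9 and 21.1 CPM. The ADAR2+SRSF9 library was at 1.02 times the ADAR2 level (0.968 to 1.08). The same sum for HBB and HBD was 1329 CPM against 4.69 CPM, 283 times (262 to 307). Against the control library the alpha-type sum stood at 1.20 times (1.14 to 1.27) in the ADAR2+SRSF9 library and 1.18 times (1.12 to 1.24) in the ADAR2 library. In these comparisons the ratio of a gene moved with its GC content. The longest transcripts of the 5 alpha-type genes had 65.2 to 68.8% GC, within the range of the highest of 10 GC classes of equal number made from 15603 genes with a mean of 1 CPM or more. HBZ and HBM were themselves under that mean. The median log2 ratio of that class was 0.25 in ADAR2+SRSF9 against control and 0.18 in ADAR2 against control. Divided by these medians, the alpha-type ratios were 1.01 (0.959 to 1.07) and 1.04 (0.992 to 1.09). HBB and HBD had 52.5 and 51.9% GC, and the class holding them had medians of 0.07 and 0.06.

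**Figure D3:**
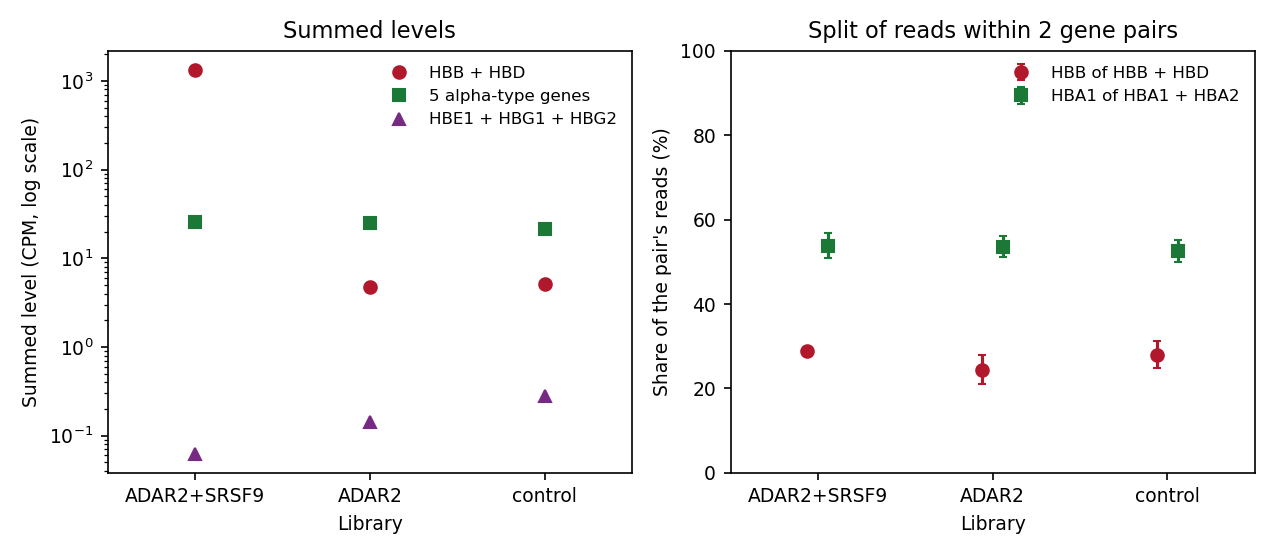
Left, summed level in CPM on a log axis of HBB and HBD, of the 5 alpha-type genes and of HBE1, HBG1 and HBG2 in each library. Right, the percentage of the reads of each gene pair taken by HBB and by HBA1, with exact 95% intervals. The alpha-type sum stays between 21.1 and 25.4 CPM, and the HBB share between 24.4% and 28.8%.

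The balance of the clusters differed between libraries accordingly. Beta-type genes held 98.1% of the reads of all 10 genes in the ADAR2+SRSF9 library (98.0 to 98.2%), 16.3% in the ADAR2 library (15.1 to 17.4%) and 20.4% in the control library (19.2 to 21.6%). In a developing red cell the alpha and beta chains are made in balanced amounts. In the ADAR2+SRSF9 library the HBB and HBD sum was at 1329 CPM beside 11.7 CPM for HBA1 and HBA2. These are levels of RNA and not of chains, and the source of the HBB and HBD reads was not tested.

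The HBB and HBD rows are set here beside those of the overexpressed genes, with 1 library per group. SRSF9 was 49.6 times higher in the ADAR2+SRSF9 library than in the ADAR2 library (49.1 to 50.003), the comparison in which HBB and HBD were high. ADARB1 was 142 times higher in the ADAR2 library than in the control library (140 to 144), while the HBB and HBD sum was at 0.915 times (0.823 to 1.02). HBB alone was at 0.799 times in that comparison (0.646 to 0.985). In the ADAR2+SRSF9 library against the control library, ADARB1 was 120 times higher (118 to 122), SRSF9 49.1 times (48.7 to 49.5) and the HBB and HBD sum 259 times (242 to 278). The ADAR2+SRSF9 library held 7.27 reads of HBB and HBD for every 100 reads of SRSF9, against 1.27 in the ADAR2 library and 1.38 in the control library. For every 100 reads of ADARB1 the numbers were 9.74, 0.0291 and 4.51 in that order. The gain in HBB and HBD between the ADAR2+SRSF9 and ADAR2 libraries was 1324 CPM, and that in SRSF9 was 17919 CPM. The count table holds 1 number per gene and library, with no position of reads along the gene, and the part of plasmid sequence in the HBB and HBD rows was not tested. In bulk libraries, few cells with much of this RNA and many cells with little of it cannot be told apart.

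**Figure D4:**
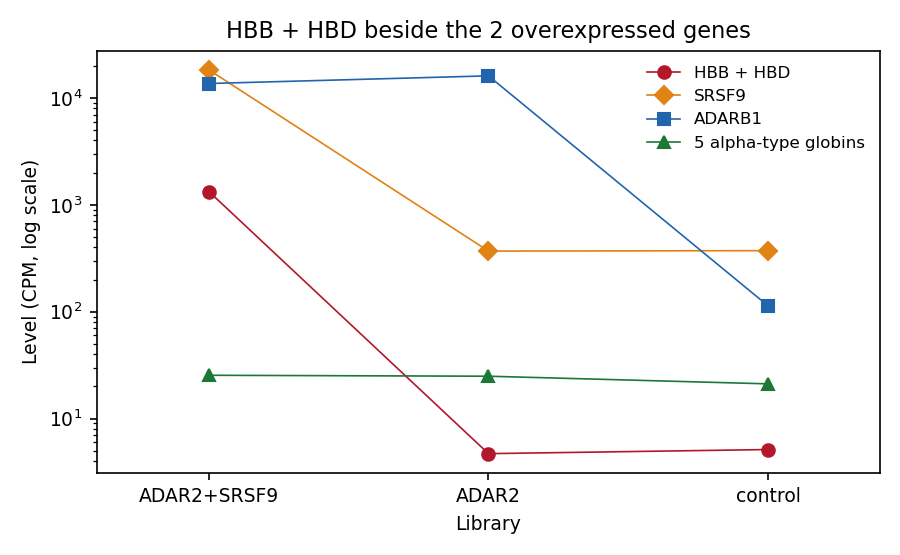
Level in CPM on a log axis of the HBB and HBD sum, SRSF9, ADARB1 and the sum of 5 alpha-type globin genes in each library; lines join the values of a gene or sum. SRSF9 and the globin pair are high in the ADAR2+SRSF9 library alone, and ADARB1 is high in both overexpressing libraries.

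By Euclidean distance over the 3 libraries, on log2 CPM centred on the mean of each gene, HBD was 0.243 from HBB. Among 20488 other genes with 100 or more reads the nearest was SRSF9, at a distance of 2.13. Next came KLKP1, a pseudogene of the kallikrein family, at 3.84, with 598, 60 and 102 reads in the ADAR2+SRSF9, ADAR2 and control libraries. RMRP, the RNA of RNase MRP, stood at 4.04 with 607, 42 and 167 reads. SRSF9P1, a pseudogene of SRSF9 that can share its reads, stood at 4.26 with 97, 15 and 21 reads. RP11-466C23.4, which has a clone-based name, was at 4.35 with 90, 22 and 12 reads. The distances of these 5 genes are each more than that between HBB and HBD. Only 3 values lie behind each distance. HBB and HBD were picked for their high counts in the library in which SRSF9 was overexpressed, so nothing is read from these distances.

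Genes that accompany globin in red cells did not share the high counts. Of 62 red cell genes in 3 lists, 55 had 10 or more reads over the ADAR2+SRSF9 and ADAR2 libraries, of which 2 were called higher and 0 lower, against the 4.14% and 3.6% of all genes. Their median log2 ratio was 0.01, as was that of all 27896 genes. Against the control library 2 of 56 were higher and 0 lower, beside 3.89% and 4.59% of all genes. The median there was 0.04 beside -0.01 for all genes. In ADAR2 against control 2 of 54 were higher and 1 lower, beside 2.57% and 4.19% of all genes. Each of the red cell genes called had under 50 reads in every library.

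The list of red cell transcription factors held 19 genes. GATA1, the master regulator of the red cell line, had 33 reads in the ADAR2+SRSF9 library, 17 in the ADAR2 library and 28 in the control library, and was 2.66 times higher in the ADAR2+SRSF9 than in the ADAR2 library (1.47 to 5.20). Against the control library its level was not called. KLF1, the activator of HBB in adults, had 14, 31 and 17 reads, highest in the ADAR2 library at 2.06 times the control (1.13 to 4.04). NFE2, which acts at the enhancer regions of both clusters, had 23, 18 and 47 reads and was lower in the ADAR2 library than in the control library, at 0.447 times (0.241 to 0.773). BCL11A, a repressor of the gamma genes, was measured more deeply, with 1539, 2491 and 2572 reads, and was not called.

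Of the 18 genes for haem synthesis and iron supply, 0 were called in each of the 3 comparisons, with log2 ratios from -0.22 to 0.32. Of all genes, 7.73% were called in ADAR2+SRSF9 against ADAR2, 8.49% in ADAR2+SRSF9 against control and 6.76% in ADAR2 against control. Those shares rest largely on genes with few reads. Among the 16072 genes with a mean of 1 CPM or more, 80, 90 and 45 were called in that order. ALAS2 alone of this list lay under that mean, so nothing is read from the count of 0. FTL, the light chain of the iron store ferritin, had the most reads of this list, at 369, 374 and 363 CPM in the ADAR2+SRSF9, ADAR2 and control libraries. ALAS2, the red cell form of the first enzyme of haem synthesis, had 36, 53 and 50 reads. ALAS1, the form used by other tissues, had 7346, 10268 and 12371.

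The list of membrane and other red cell proteins held 25 genes. In ADAR2+SRSF9 against ADAR2, 1 of 18 was called higher, in ADAR2+SRSF9 against control 2 of 19, and in ADAR2 against control 1 of 17, with 0 called lower, beside the 4.14%, 3.89% and 2.57% of all genes called higher. SLC4A1, the band 3 anion exchanger, had 14 reads in the ADAR2+SRSF9 library, 5 in the ADAR2 library and 9 in the control library. It was 3.62 times higher than in the ADAR2 library (1.33 to 13.9) and 2.41 times higher than in the control library (1.01 to 6.57). CA1, a carbonic anhydrase of red cells, had 8, 4 and 3 reads and was 3.73 times higher in the ADAR2+SRSF9 library than in the control library (1.03 to 25.2). With plain library totals neither was called against the control. RHD, a blood group protein gene, had 15, 25 and 12 reads and was 2.34 times higher in the ADAR2 library than in the control library (1.16 to 5.24). AHSP, the chaperone of free alpha globin, had 1, 0 and 0 reads.

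**Figure D5:**
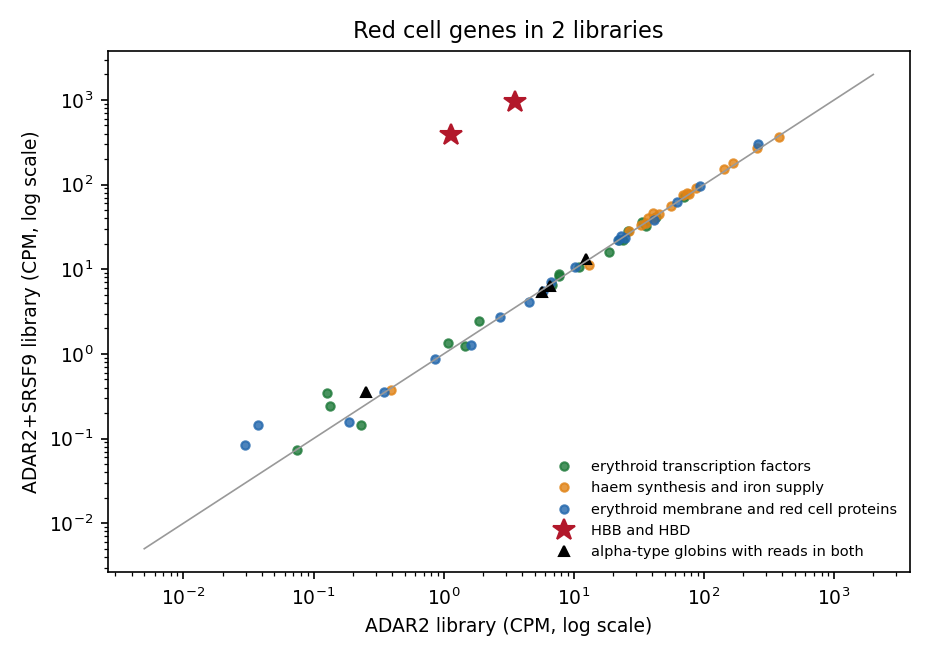
Level in the ADAR2+SRSF9 library against that in the ADAR2 library, in CPM on log axes, for red cell genes with reads in both, by list, with the alpha-type globin genes and HBB and HBD. The grey line marks equal levels. HBB and HBD lie at 383 and 946 CPM, far above the line on which most other genes sit.

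The 9 defining markers of red cells summed to 1.91, 1.66 and 1.75 CPM in the ADAR2+SRSF9, ADAR2 and control libraries, and EPB42 was the largest part of each sum (0.866, 0.864 and 0.990 CPM). Of these 9, 5 had 10 or more reads over the ADAR2+SRSF9 and ADAR2 libraries. GATA1 and SLC4A1, 2 of those 5, were called higher and 0 were lower, beside 4.14% and 3.6% of all genes. Against the control library 1 of 6 was higher and 0 were lower, beside 3.89% and 4.59%. RHAG had 0, 0 and 2 reads and HEMGN had 0, 1 and 4 in the ADAR2+SRSF9, ADAR2 and control libraries. The 7 white blood cell markers summed to 5.47, 5.06 and 5.02 CPM, with PTPRC, their defining surface protein, at 0, 5 and 6 reads. Megakaryocyte and platelet markers summed to 28.0, 27.2 and 25.4 CPM, nearly all of it ITGA2B. Fibroblast markers, mainly COL1A1, summed to 40.3, 34.3 and 35.2 CPM and hepatocyte markers to 0.501, 0.730 and 0.518 CPM.

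Genes beside the clusters did not share the HBB and HBD counts. Of the 11 measured neighbours of the alpha cluster 0 were called in each comparison. The neighbours' median log2 ratios were 0.03 in ADAR2+SRSF9 against ADAR2, 0.18 in ADAR2+SRSF9 against control and 0.13 in ADAR2 against control. Of all genes, 7.73%, 8.49% and 6.76% were called in that order. LUC7L, a splicing factor gene, had the most reads of the 11, at 100.2, 98.1 and 90.0 CPM in the ADAR2+SRSF9, ADAR2 and control libraries. NPRL3, whose introns carry the alpha globin enhancers, stood at 55.8, 55.6 and 46.6 CPM. Around the beta cluster lie olfactory receptor genes. Of the 13 in the table, 8 had 0 reads in all libraries, and the others summed to 0, 4 and 6 reads. TRIM5, an antiviral factor gene further along the chromosome, had 11.4, 10.8 and 12.5 CPM. Of the 4 beta cluster neighbours with enough reads, 0 were called. With so few genes, a count of 0 cannot be told from the shares of all genes called.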

How the data were processed

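The table that the authors deposited holds raw counts of reads for 57268 gene identifiers, as whole numbers. Per the submitters' processing notes, the build was hg19 and the tools were STAR, Picard, GATK and SAMtools, with neither role nor version. Which program counted reads, and whether by strand, is not given in the sources used here, so reads of overlapping or near-identical genes may be mixed. Per the labels' protocols, total RNA was prepared with a NEBNext Ultra Directional kit.

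From these counts, CPM were computed on TMM-scaled library sizes (edgeR 4.0.16, R 4.3.3). Ratios between 2 libraries used a prior count of 0.5 in proportion to library size. Their 95% intervals were converted from exact Clopper-Pearson limits on the share of a pair's reads found in the upper library. A gene was called at 10 or more reads over the pair, a ratio of 2-fold or more, and an interval excluding 1. With 1 library per group no p-value was computed. Interval and call were tested on simulated Poisson counts. Such counts hold counting error only, so that test says nothing on other variation between libraries. Python 3.11.15, numpy 2.4.6, pandas 2.3.3, scipy 1.17.1, Biopython 1.88 and matplotlib 3.10.9 served the remaining steps. Transcripts came from GENCODE version 29 on GRCh38, matched by RefSeq accession for all 10 genes. Promoters came from RefSeq on GRCh38.p14. Neither is the authors' build.

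Genes named are the 10 globins, ADARB1 and SRSF9, the 5 genes nearest to the HBB pattern, and from each list the genes called or else the one with most reads. HBBP1, BCL11A, ALAS1, ALAS2, AHSP, NPRL3 and the marker genes outside this rule were named for their role after values were seen. Members and lists were chosen with earlier results of these data known.

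Alternatives were DESeq2 1.42.0 size factors, plain totals, upper-quartile scaling, TMM without mitochondrial genes, ADARB1, SRSF9, HBB and HBD, a larger prior count of 5, a call at 1.5-fold, a call needing the whole interval past 2-fold, and other filters. Division by the median of the highest GC decile was added after the data were seen.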

Additional observations from a re-analysis of the deposited data

How the results depend on the processing

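HBB and HBD were called higher in the ADAR2+SRSF9 library under each alternative run, at 322.0 to 334 (HBB) and 258 to 267 times (HBD) the ADAR2 level and 258 to 266 and 248 to 256 times the control level. Of 173 alternative values in all, 154 stayed within their interval or within 1.5 times their count. The rest follow, in the order ADAR2+SRSF9 against ADAR2, ADAR2+SRSF9 against control, ADAR2 against control. All genes called numbered 2157, 2417 and 1951. They numbered 3416, 3872 and 2956 at 1.5-fold, 387, 471 and 418 with the interval wholly beyond 2-fold, and 80, 90 and 45 at a mean of 1 CPM or more; the cause was not tested. At that filter 0 red cell genes were called in each comparison. With plain totals 0 were called in ADAR2+SRSF9 against control. In ADAR2 against control 1 globin gene was called with upper-quartile scaling and 1 at 1.5-fold, against 0 otherwise. Divided by the median of the highest GC decile, the alpha-type ratio was 0.968, 1.01 and 1.04. With 1000 or more reads required, 1 of the 5 genes nearest to HBB was among the first 5. No paired analysis was possible because each group holds 1 library. Without replicates, no ratio has an error beyond counting, and HBE1, HBG1, HBG2, HBZ and HBM had too few reads to show changes of modest size.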

Other observations

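Genes whose sequence elements are used in expression vectors, other than globin, were measured as a further list. Of 7 with 10 or more reads over the pair, 0 were called in ADAR2+SRSF9 against ADAR2 and in ADAR2+SRSF9 against control. Of all genes, 7.73% and 8.49% were called there and 6.76% in ADAR2 against control. So few genes cannot be told from these shares. In ADAR2 against control 1 was higher, CSH2, a placental lactogen gene, with 37 reads in the ADAR2 library and 16 in the control library. EEF1A1, whose promoter drives many vectors, had 12918, 12330 and 13645 CPM in the ADAR2+SRSF9, ADAR2 and control libraries. Among other members of the globin superfamily, CYGB, the widely expressed cytoglobin gene, had 28, 57 and 58 reads, and MB, the muscle myoglobin gene, had 0, 4 and 4. HBZP1, a zeta globin pseudogene, had 9, 5 and 3 reads and was called higher in the ADAR2+SRSF9 library than in the control library.

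Among markers of other cell types, COL1A2, a collagen gene of fibroblasts, had 16 reads in the ADAR2+SRSF9 library, 2 in the ADAR2 library and 6 in the control library, and ITGAM, an integrin of white blood cells, had 15, 47 and 59. PF4, a platelet chemokine gene, had 9, 28 and 30 reads. TTR, the transthyretin gene of hepatocytes, had 2, 10 and 0 reads. These genes were the ones called in any comparison. In ADAR2+SRSF9 against ADAR2, 1 of 5 fibroblast markers was higher. There, 1 of 5 white blood cell markers and 1 of 2 platelet markers were lower. In ADAR2 against control 1 of 4 hepatocyte markers was higher. Of all genes, 7.73% and 6.76% were called in these comparisons. Some other fibroblast and white blood cell markers went the other way, so nothing is read from these genes.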
